A study of Mus musculus with 6 samples.

Results

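The voltage dependent anion channel family was represented on the mouse cDNA arrays by 8 of 31200 spots. These were the spots that the array's probe annotation assigns to Vdac1, Vdac2 or Vdac3. Each odd probe number and the next even one are duplicate spots of the same cDNA clone, so the 8 spots hold 4 of 15600 clones. Vdac1 had a clone at probes 5241 and 5242 and a separate clone at probes 10259 and 10260, Vdac2 had 1 clone at probes 3817 and 3818, and Vdac3 had 1 clone at probes 1173 and 1174. All 4 clones had values on all 6 arrays. Whether a clone also binds RNA of another family member was not tested.

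Neuro-2a is a mouse neuroblastoma line. The treated cells carried the 59Q construct, human TATA binding protein (TBP) with a stretch of 59 glutamines fused to GFP, and the control cells carried N3, the pEGFPN3 vector, which gives GFP alone. Both received the plasmid by transient transfection, kept their own mouse Tbp, and gave total RNA after 60 h. The N3 plasmid carries no TBP, so on these arrays the length of the glutamine stretch was not separated from the presence of added TBP. The study used TBP with a shorter stretch in other assays, but not on the arrays. On each of the 6 arrays the 59Q RNA and the N3 RNA were hybridized together in different dyes. Replicates 1, 3, 4 and 6 carried the 59Q RNA in Cy5, whereas replicates 2 and 5 carried it in Cy3. A dish holds transfected and untransfected cells, so a change in RNA per cell and a change in the share of cells cannot be told apart.

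VDAC proteins are barrel shaped channels of the mitochondrial outer membrane. Through them pass ATP, ADP, calcium and other metabolites. Vdac1 is usually the most abundant of the 3 and binds hexokinase, VDAC2 holds the death protein BAK at the membrane, and Vdac3 is the least abundant. VDAC1 is widely studied in apoptosis, where cytochrome c leaves the mitochondrion and activates caspases. The study asked whether expanded TBP changes transcription, and Vdac1 was among the genes it followed up.

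TBP is the factor that binds the TATA box, so the promoter of Vdac1 is shown here as the sequence the question concerns. In the RefSeq annotation of build GRCm38.p6 Vdac1 lies at chr11:52360851-52389397, Vdac2 at chr14:21831561-21845879 and Vdac3 at chr8:22577075-22593813. For Vdac1 the promoter table holds 2 start sites, both on the plus strand. The 250 bases before the first start, at chr11:52360601-52360850, and before the second, at chr11:52361347-52361596, read 5′ to 3′ as follows, with capitals marking each GC box (GGGCGG).
Vdac1, first start: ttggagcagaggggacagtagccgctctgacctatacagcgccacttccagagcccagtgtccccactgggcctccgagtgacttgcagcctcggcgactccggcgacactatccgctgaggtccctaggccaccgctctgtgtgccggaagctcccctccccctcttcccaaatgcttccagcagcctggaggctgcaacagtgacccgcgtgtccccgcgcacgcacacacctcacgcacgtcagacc
Vdac1, second start: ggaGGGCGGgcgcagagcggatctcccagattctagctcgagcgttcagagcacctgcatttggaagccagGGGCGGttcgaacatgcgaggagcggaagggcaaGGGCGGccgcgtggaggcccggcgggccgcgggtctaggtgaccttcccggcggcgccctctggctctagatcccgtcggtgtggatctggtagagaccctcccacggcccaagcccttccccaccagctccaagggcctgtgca

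Both strands were searched for the TATA box letters TATAAA, the GC box letters GGGCGG and the sterol regulatory element letters TCACNCCAC. The letters do not overlap each other. Before the second start the GC box was found 3 times on the strand of the gene, beginning at positions -247, -179 and -145 counted from the start, and before the first start none of the 3 motifs was found. Neither window held the TATA box letters. Of 32851 promoter windows of 250 bases, 12.4% held the TATA box letters, 32.7% the GC box and 1.05% the sterol element. The arrays measured RNA, so no value here bears on binding at these letters.

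The deposited value of each spot is a Z-ratio, a score with an SD of 1 over the spots of each array, which is not a fold change. Its sign was read as deposited, with values above 0 taken as higher in 59Q transfected cells, since the study uses N3 as the control of 59Q. The sources used here do not state the direction of each array. A figure legend of the study gives its own plotted values as 59Q against vector cells, with Vdac1 among the genes reported as up-regulated. That legend names neither the arrays nor the Vdac1 clone behind the value. The Vdac results are therefore also given in a Cy5 over Cy3 reading, in which the sign of replicates 2 and 5 is turned. Arrays of the same dye orientation correlated at a median r of 0.231 over clones (7 pairs), and arrays of opposite orientation at -0.245 (8 pairs). Spots without a value numbered from 19 to 11234 per array. Duplicate spots correlated at 0.730 to 0.889.

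The first Vdac1 clone followed the dye of the 59Q sample on every array. At probes 5241 and 5242 the deposited Z-ratio was 2.59, 0.958, 1.45 and 1.78 on replicates 1, 3, 4 and 6, with 59Q in Cy5. It was -2.74 and -0.631 on replicates 2 and 5, with 59Q in Cy3. The 4 values of the first set all lay above 0 and the pair of the second set below it, so the orientations did not overlap. Among all clones on an array, this clone lay between the 92.3rd and 98.7th percentiles when 59Q was in Cy5, and at the 0.949th and 18.7th percentiles when it was in Cy3.

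The second Vdac1 clone ran the other way on every array. At probes 10259 and 10260 the deposited Z-ratio was -0.754, -0.136, -0.994 and -0.417 on replicates 1, 3, 4 and 6. On replicates 2 and 5 it was 2.05 and 0.206. Here the orientations did not overlap either, but the arrays with 59Q in Cy5 were the lower ones. Of 10156 clones measured on all 6 arrays, 12.5% lay higher on all arrays with 59Q in Cy5 than on both with 59Q in Cy3, as the first clone did, and 20.1% lay lower, as the second did. Separation by dye orientation was therefore frequent on these arrays.

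**Figure D1:**
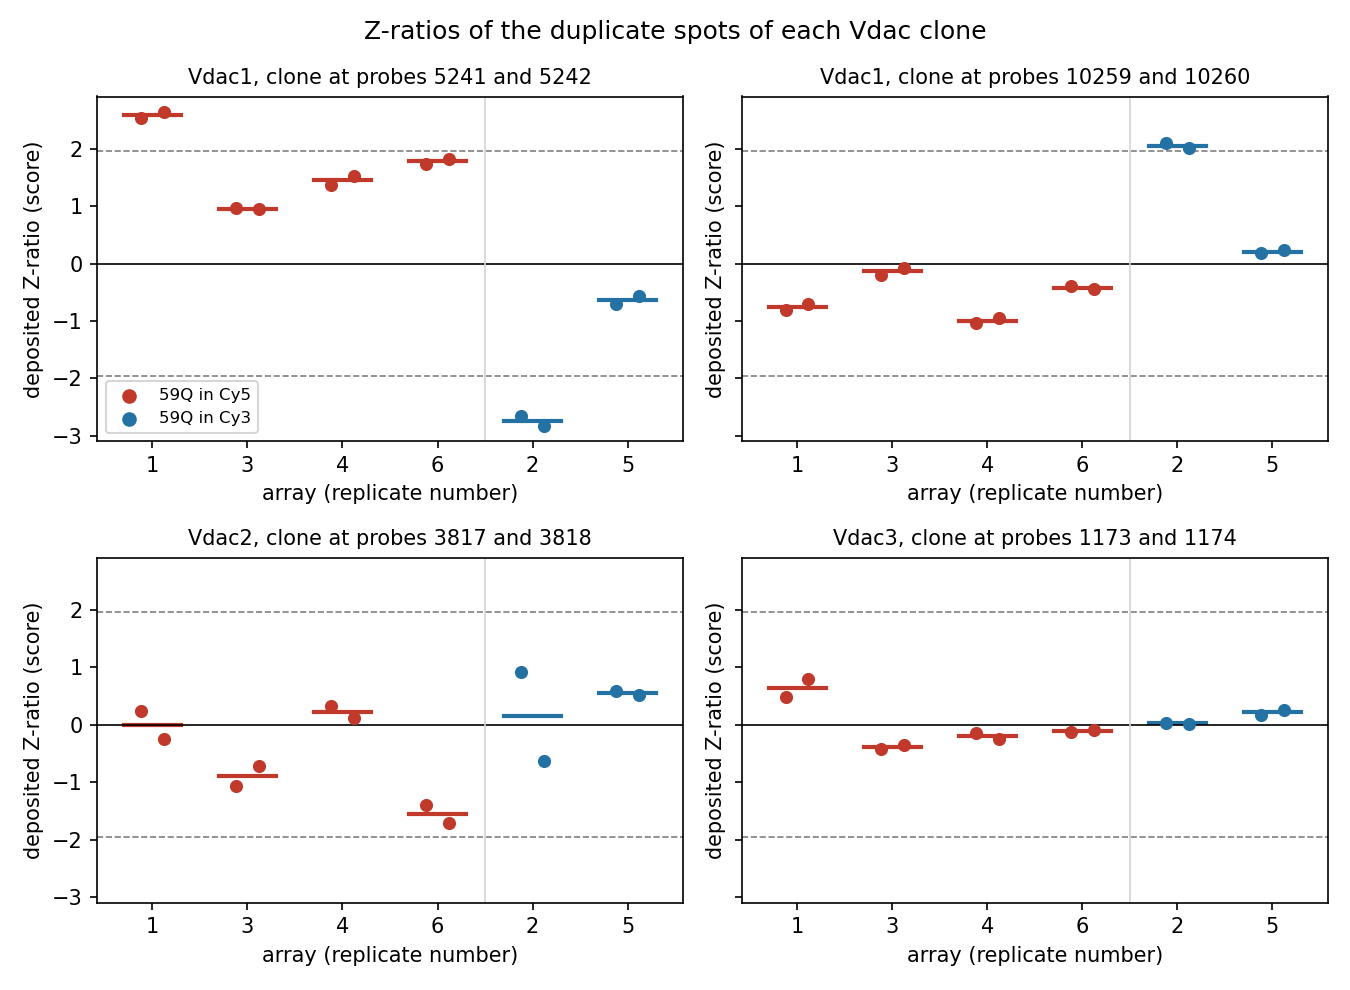
Deposited Z-ratio (score, vertical axis) of the duplicate spots (points) of the 4 Vdac clones on each array (horizontal axis, replicate number, arrays with 59Q in Cy5 first); bars are the mean of the duplicates, colours separate arrays with 59Q in Cy5 from those with 59Q in Cy3, and dashed lines mark the significance threshold of the methods on either side of 0. The Vdac1 clone at probes 5241 and 5242 is above 0 with 59Q in Cy5 (0.958 to 2.59) and below 0 with 59Q in Cy3, the other Vdac1 clone is the reverse, and Vdac3 stays between -0.378 and 0.636.

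Averaged over the 6 arrays as deposited, no Vdac clone passed. The mean Z-ratio of the first Vdac1 clone was 0.567 ± 1.94 (SD, n = 6) and that of the second was -0.00671 ± 1.10 (SD, n = 6), each smaller than its spread between arrays. In limma, fitted over 14418 clones, the adjusted p was 0.998 for all 4 Vdac clones. As background, 0% of the clones and 0% of 6463 genes passed an adjusted p under 0.05 as deposited, while 295 clones (2.05%) had an unadjusted p under 0.05, none of them a Vdac clone.

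Read as Cy5 over Cy3, the first Vdac1 clone was called higher in 59Q transfected cells. Its mean Z-ratio in this reading was 1.69 ± 0.854 (SD, n = 6), above 0 on 6 of 6 arrays (limma adjusted p = 0.0348). In the same reading 1.89% of all clones were called higher and 0.0486% lower. Of 10156 clones on all 6 arrays, 8.44% lay above 0 on every array in this reading and 8.81% below 0. The call was lost when replicate 1, 2, 3, 4 or 6 was left out (limma adjusted p from 0.0544 to 0.0946) and was kept without replicate 5 (limma adjusted p = 0.0223). The design text counts 4 biological replicates and does not say which arrays are dye swaps of each other, so the 6 arrays may hold fewer than 6 independent samples. With the arrays averaged into 4 samples by each of the 12 possible pairings, an alternative added after seeing the data, the clone was called in 3 (limma adjusted p from 0.0317 to 0.154) and its mean ran from 1.57 to 1.81. The second Vdac1 clone had a mean of -0.760 ± 0.713 (SD, n = 6) in this reading, below 0 on 6 of 6 arrays, and did not pass (limma adjusted p = 0.194). With a dye term in the fit, the mean of the first clone was 0.00352 and that of the second 0.278, with dye coefficients of 1.69 and -0.853 (limma adjusted p = 0.0920 and 0.248). The dye coefficient as deposited is the same number as the 59Q effect with a dye term in the Cy5 over Cy3 reading, so the arrays hold 1 pattern under both names.

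Single spots of Vdac1 passed the threshold that the methods take as significant on an array, the score outside which 5% of a standard normal distribution lies. Of its 24 spot values 4 lay at or past it above 0, namely both spots of the first clone on replicate 1 (2.54 and 2.64) and both spots of the second clone on replicate 2 (2.09 and 2.01). Another 2 lay at or past it below 0, both spots of the first clone on replicate 2 (-2.66 and -2.82). On replicate 2 the clones of the same gene thus passed this threshold on opposite sides. Over all spot values of the series 1.86% passed it above 0 and 2.34% below 0. None of the 12 spot values of Vdac2 or the 12 of Vdac3 passed in either direction.

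The opposition of the Vdac1 clones was far larger than the difference between duplicate spots. On the 6 arrays the clones differed by 0.837 to 4.80 Z-ratio units, while duplicate spots of either clone differed by 0.00664 to 0.163. The difference between clones was 5.72 to 32.4 times the larger spot difference on the same array. It was 4.80 on replicate 2, where both clones had their most extreme values of the Cy3 orientation, and smallest on replicate 5. Across the 6 arrays the clones correlated at r = -0.939, with opposite signs on 6 of 6 arrays. These points share the dye orientation of the arrays, and the value is a description.

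An r as low as that of the Vdac1 clones was rare among clones annotated to the same gene, but an r below 0 was not. The cut was the value of Vdac1 itself, so the share below it is a description. How often the clones of other genes had opposite signs on all 6 arrays was not counted. Of 740 genes with exactly 2 clones on all 6 arrays, the median r between the clones was 0.211, with quartiles of -0.204 and 0.605, and 38.6% were below 0. Only 5, or 0.676%, were at or below -0.939. They were Gnpat, Cr1l, Basp1 and Dynlrb1 besides Vdac1 itself, named after their values had been seen. The deposited files do not give the sequence of either Vdac1 clone, and which part of the transcript each clone covers was not tested.

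**Figure D2:**
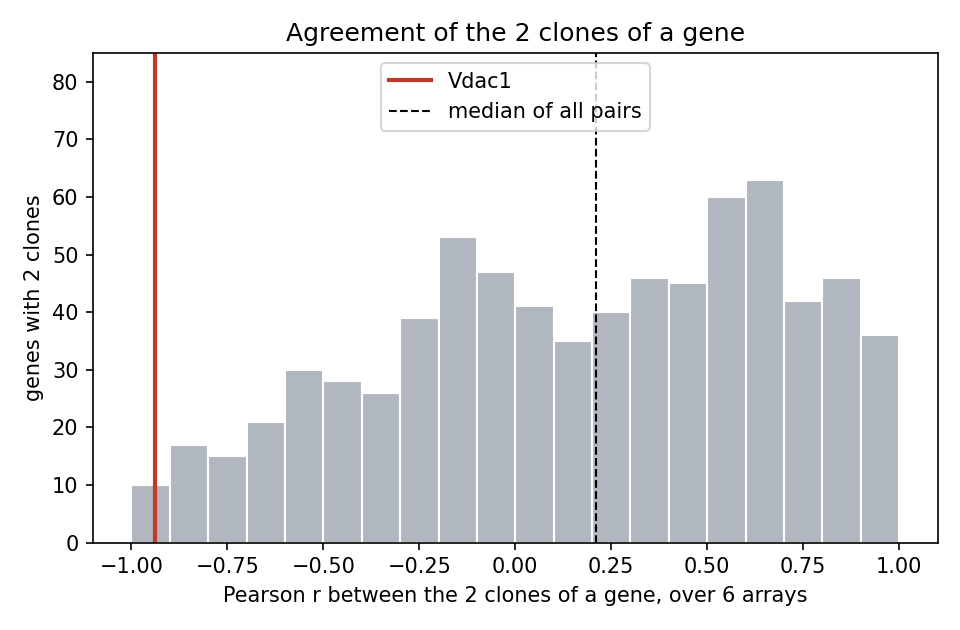
Number of genes (vertical axis) by Pearson r between their 2 clones over the 6 arrays (horizontal axis, bins of 0.1), for the 740 genes with exactly 2 clones measured on all arrays. The solid line marks Vdac1 at -0.939, in the lowest bin, and the dashed line the median of 0.211.

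Averaging the opposed clones gave Vdac1 a small value as a gene. Its Z-ratio was 0.917, 0.411, 0.227 and 0.681 on replicates 1, 3, 4 and 6, and -0.344 and -0.212 on replicates 2 and 5. The mean followed the dye because the first clone had the larger values. As deposited the gene mean was 0.280 ± 0.494 (SD, n = 6), with a 95% limma interval from -0.257 to 0.817 (limma adjusted p = 0.999; exact two-sided sign-flip permutation p = 0.219). Read as Cy5 over Cy3 it was 0.466 ± 0.279 (SD, n = 6; limma adjusted p = 0.207; exact sign-flip permutation p = 0.0312, the smallest that 6 arrays allow). In that reading 0.279% of all genes were called, and Vdac1 was not. The smallest sign-flip p is reached whenever all 6 arrays share a sign. In this reading 8.44% of the clones on all 6 arrays did so above 0 and 8.81% below 0. From the first clone alone the gene was at 1.69 in the Cy5 over Cy3 reading (limma adjusted p = 0.0641), and from the second alone at -0.760 (limma adjusted p = 0.182), alternatives chosen after seeing the data. The sign given to Vdac1 thus rested on which clone was counted.

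Vdac2, the isoform that holds BAK, varied between arrays without following the dye throughout. Its Z-ratio was -0.000500, -0.887, 0.221 and -1.55 on replicates 1, 3, 4 and 6, and 0.150 and 0.558 on replicates 2 and 5. Replicates 3 and 6 were low and the other arrays lay near or above 0, and the orientations overlapped. The mean was -0.252 ± 0.800 (SD, n = 6), with a 95% limma interval from -0.912 to 0.408 (limma adjusted p = 0.999). Without replicate 6 the mean was 0.00831, so its sign rested on that array. Read as Cy5 over Cy3 the mean was -0.488 ± 0.657 (SD, n = 6; limma adjusted p = 0.306).

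The duplicate spots of Vdac2 were the least alike of the family. They differed by 0.0802 to 1.54 (median 0.325), against a median of 0.212 over all clones and arrays. On replicate 2 they lay on either side of 0, at 0.922 and -0.623. From the first spot alone the mean of Vdac2 was -0.0611 and from the second -0.443. For the Vdac1 clones and Vdac3 the median spot difference was 0.123, 0.0802 and 0.0755.

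Vdac3 had the smallest spread. Its Z-ratio was 0.636, -0.378, -0.198 and -0.109 on replicates 1, 3, 4 and 6, and 0.0250 and 0.217 on replicates 2 and 5. Replicate 1 was the farthest from 0, and the orientations overlapped. The SD over arrays was 0.358, against a median of 0.716 over clones on all 6 arrays. The mean was 0.0322 as deposited, with a 95% limma interval from -0.462 to 0.527 (limma adjusted p = 0.999), and -0.0485 read as Cy5 over Cy3 (limma adjusted p = 0.906).

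**Figure D3:**
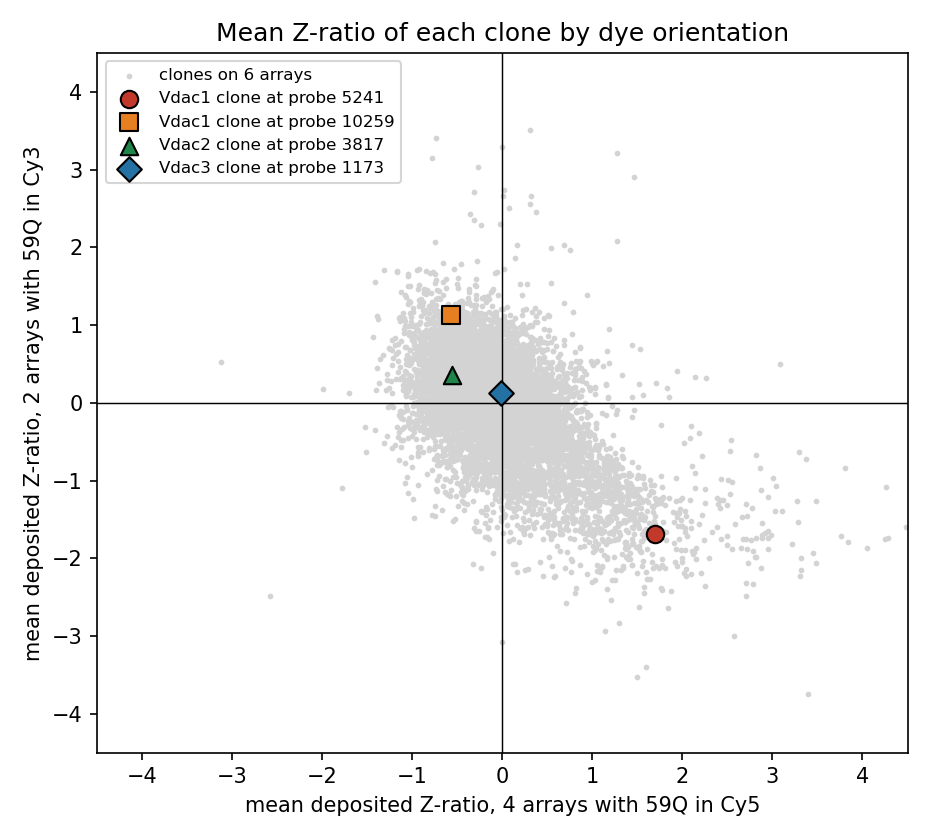
Mean deposited Z-ratio over the 4 arrays with 59Q in Cy5 (horizontal axis, score) against that over the 2 arrays with 59Q in Cy3 (vertical axis, score) for 10156 clones measured on all 6 arrays (grey; 20 lie outside the axes), with the 4 Vdac clones marked. The Vdac1 clones sit in opposite quadrants, at 1.69 and -1.69 and at -0.575 and 1.13, while Vdac3 lies near the origin.

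The members were compared with each other on the same arrays, as 3 pairs of genes. As deposited, Vdac1 exceeded Vdac2 by 0.532 ± 1.15 (SD, n = 6) and was higher on 4 of 6 arrays, with differences from -0.770 to 2.24. It exceeded Vdac3 by 0.248 ± 0.540 (SD, n = 6), again on 4 of 6 arrays, with differences from -0.429 to 0.790. Vdac2 minus Vdac3 was -0.284 ± 0.717 (SD, n = 6), with differences from -1.44 to 0.419. Exact two-sided sign-flip permutation tests gave p = 0.281, 0.375 and 0.406 (0.406 for each when adjusted over the 3 pairs).

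Read as Cy5 over Cy3, Vdac1 lay above both paralogs on 6 of 6 arrays. The differences were 0.954 ± 0.762 from Vdac2 and 0.514 ± 0.220 from Vdac3 (SD, n = 6; exact sign-flip permutation p = 0.0312 for each, 0.0469 adjusted over the 3 pairs). Against Vdac2 the smallest difference was 0.00595. The unadjusted p is the smallest that 6 arrays allow, and how often other pairs of genes reach it in this reading was not tested. With 4 samples a sign-flip test cannot go below p = 0.125, and over the 12 pairings both differences had an exact permutation p of 0.1875 after adjustment, so neither call holds if the series has 4 independent samples. For Vdac2 against Vdac3 the difference was -0.439 ± 0.617 (SD, n = 6; exact sign-flip permutation p = 0.125). With Vdac1 taken from its second clone the first pair of differences turned to -0.272 and -0.712, and from its first clone they were 2.18 and 1.74. So the higher value of Vdac1 in this reading came from 1 of its 2 clones.

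For each Vdac clone the clones with the most similar values over the 6 arrays were listed. The Vdac1 clones correlated at r = -0.939, so their lists could not overlap. For the first Vdac1 clone the highest Pearson r was with Tmem63a (0.999), Sf3a2, a splicing factor subunit (0.999), Hspa4l, a heat-shock protein (0.998), Renbp (0.998) and Sigirr (0.998). For the second it was with Pisd, a mitochondrial phospholipid enzyme (0.995), Col4a2, a basement membrane collagen (0.988), Tpp1, a lysosomal protease (0.986), Bet1 (0.978) and Supt6 (0.976). With 6 points that share 2 dye orientations such values were common: of 6175 named clones of other genes, 301 had r over 0.9 with the first clone and 224 with the second. Vdac2 was most like Actn1 (0.991), Ap2m1 (0.984), Gnai2 (0.982), Rph3a (0.977) and Lpgat1 (0.976), with 85 clones over 0.9. Vdac3 was most like Zmynd8 (0.992), Coa7 (0.990), Tubgcp2 (0.981), Pla2g4c (0.973) and Irf9 (0.973), with 28 over 0.9. The values are descriptions over 6 arrays.

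Of the genes that act beside the VDAC channels or around the outer membrane, 58 were tested in 5 lists. As deposited 0 were called, as were 0% of all genes, and read as Cy5 over Cy3 0 were called, where 0.279% of all genes were (limma, adjusted over all genes). At an unadjusted p under 0.05 there were 1 of 58 as deposited, where all genes gave 2.61%, and 12 of 58 (20.7%) read as Cy5 over Cy3, where all genes gave 19.8%. These shares were near those of all genes. Over all 6463 genes 43.1% had a mean above 0 as deposited, against 34.6% read as Cy5 over Cy3, with medians of -0.0449 and -0.160.

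Of 19 genes listed as pore partners 10 were tested. The list is broad and holds carriers and kinases discussed beside VDAC and also ATP synthase subunits of the inner membrane. Of the 10 tested, 7 had means above 0 (median 0.136) as deposited, against 6 read as Cy5 over Cy3 (median 0.154). Slc25a5, an exchanger of ADP and ATP, was at 0.147 and 0.0267 in these readings. Slc25a3, the phosphate carrier, was at 0.169 and -0.0531. Hk1, the hexokinase that docks on VDAC, was at -0.218 and -0.354, below 0 in both. Tspo, an outer membrane protein reported beside VDAC, changed sign, from 0.125 to -0.630, as its values were -0.378 with 59Q in Cy5 and 1.13 with 59Q in Cy3. Ak3, an adenylate kinase of the matrix, was at -0.180 and -0.248. Gsk3b, a kinase, and Atp5b, an ATP synthase subunit, were the highest in the Cy5 over Cy3 reading at 1.37 and 1.28 and were picked out after their values were seen. Slc25a4, Ppif and Hk2 had no named probe here.

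Of 24 listed members of the Bcl2 family, which controls release through the outer membrane, 7 were tested. Of these 7, 2 lay above 0 in each reading (medians -0.214 and -0.310). Bnip3 was at 0.434 and 0.0456, on 4 arrays. Mcl1, which restrains cell death, was at -0.285 and -0.407, Bcl2l10 at -0.313 and -0.359, and Bnip1 at -0.289 and -0.0322. Bax, Bak1, Bcl2 and Bcl2l1 had no named probe here. Of 24 genes listed for cytochrome c and the caspases 12 were tested. Of these 12, 3 lay above 0 as deposited, against 2 read as Cy5 over Cy3 (medians -0.0943 and -0.312). Cycs, cytochrome c itself, was at -0.113 ± 0.779 (SD, n = 6) as deposited and -0.564 read as Cy5 over Cy3 (limma adjusted p = 0.206). Casp6, an executioner caspase, was at -0.863 on 4 arrays (-0.355 read as Cy5 over Cy3), the 1 gene of these lists with an unadjusted p under 0.05 as deposited (limma adjusted p = 0.999). Htra2, a protease released with cytochrome c, was at -0.590 as deposited and -0.553 read as Cy5 over Cy3, Diablo, an antagonist of caspase inhibitors, at -0.264 and -0.184, and Parp1, a caspase substrate, at 0.359 and 0.127. The lowest values of these lists in the Cy5 over Cy3 reading were those of Bik, a death-promoting Bcl2 family member, at -1.34 (-0.214 as deposited), and Casp12, a caspase, at -1.42 on 4 arrays (0.483 as deposited), both picked out after their values were seen.

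Of 28 genes listed for outer membrane import and dynamics 20 were tested. Of these 20, 6 lay above 0 as deposited and 7 read as Cy5 over Cy3 (medians -0.102 and -0.0529). Dnm1l, the fission GTPase, was at -0.435 and -0.718, Mfn1, a fusion GTPase, at -0.446 and -0.470, Cpt1a, which starts fatty acid import, at -0.446 and -0.407, and Mtx1 at -0.314 and -0.496, each below 0 in both readings. Of 23 genes listed for calcium handling and contact with the endoplasmic reticulum 9 were tested. Of these 9, 4 and 3 lay above 0 (medians -0.106 and -0.119). Hspa9, the chaperone that links VDAC1 to the calcium release channel, was at 0.241 and 0.425, Vapb at 0.212 and 0.112, and Gsn, gelsolin, at -0.404 and -0.594. As deposited Hspa9 lay above 0 on only 2 of 6 arrays and reached 1.63 on replicate 1. Calr, calreticulin, turned from -0.599 to 0.782. Set beside these lists, the gene mean of Vdac1 at 0.280 and 0.466 was above the median of each list in both readings, while its second clone alone was at -0.00671 and -0.760. The medians of all genes were also below 0, at -0.0449 and -0.160. Single genes of the lists exceeded the gene mean of Vdac1, such as Bnip3 at 0.434 as deposited and Gsk3b at 1.37 read as Cy5 over Cy3.

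**Figure D4:**
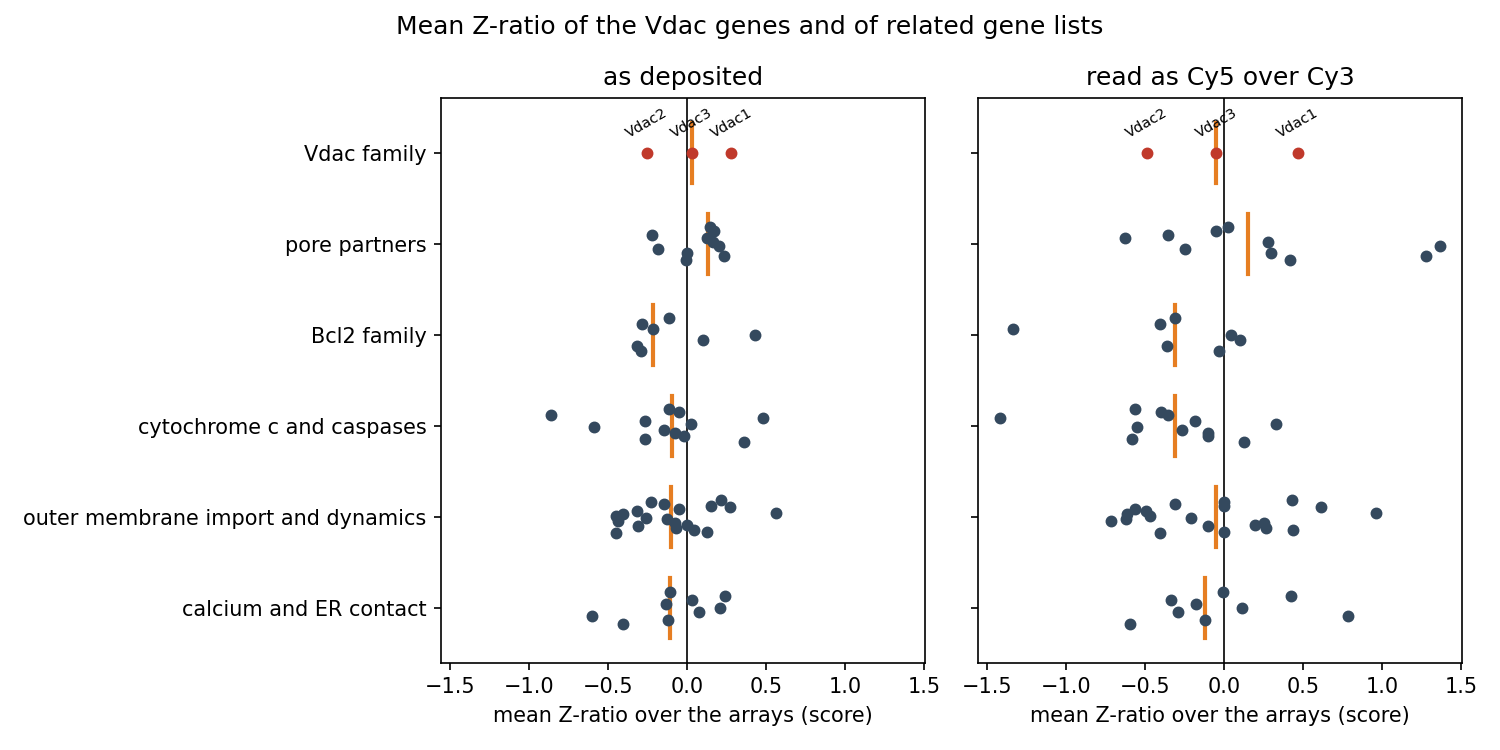
Mean Z-ratio over the arrays (horizontal axis, score) of the 3 Vdac genes and of the tested genes of the 5 related lists (rows; points are genes, vertical bars the median of a row), as deposited on the left and read as Cy5 over Cy3 on the right. Vdac1 is at 0.280 and 0.466, Vdac2 at -0.252 and -0.488, Vdac3 at 0.0322 and -0.0485, and the values of the lists spread further in the Cy5 over Cy3 reading.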

How the data were processed

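Deposited Z-ratios (a score per spot) of 6 two-colour arrays were used. The authors labelled total RNA by tyramide amplification, quantified the scanned slides in GenePix Pro and made the score by Z transformation. The direction of each deposited array and the background correction are not given in these sources. Duplicate spots were averaged into clones and clones into genes. Of the spots, 18384 had 1 gene symbol, 514 several and 12302 are unnamed here; 18172 were matched by Entrez ID to GRCm38.p6 names. A clone or gene entered the limma 3.58.1 fit (R 4.3.3, lmFit and eBayes, Benjamini-Hochberg adjustment over all) if it had values on 4 arrays or more. Single values had exact sign-flip permutation tests over 64 sign patterns, and the code was tested on simulated data. All 6 arrays were taken as replicates, from different batches of cells per the methods; the series speaks of 4 biological replicates and flip-dye pairs, which are not identified, so p-values measure the spread between arrays. The number of arrays limits the precision. Alternatives covered direction, dye, arrays, scaling, filters and clones. Members and lists were chosen with earlier results of these data known. Genes named are the members, a preset set of partners where measured, the 4 lowest p-values of each list as deposited, and the 5 most alike clones; Gsk3b, Atp5b, Bik, Casp12 and the 4 genes beside Vdac1 in clone agreement were added after their values were seen. Direct ratios hold no level per sample, so the cell line was not checked by its markers. Real-time PCR, blots, chromatin immunoprecipitation and cell assays were not analysed here.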

Additional observations from a re-analysis of the deposited data

Results flagged for a closer look

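Of 29 clones and genes named and tested for a single array far from the others, 3 had such an array, and chance gives about 5%. The 29 are not all distinct: Vdac2 and Vdac3 count as clone and as gene with the same values. Vdac1 counts as its clones and as their mean. Slc25a3 lay at -0.528 on replicate 3, below its values on the other arrays. Ak3 lay at -1.60 on replicate 6, its lowest value. Mtx1 lay at 0.778 on replicate 5, its highest. No Vdac clone or gene was among them.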

How the results depend on the processing

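As deposited, the Vdac means and differences passed no test, and no other setting below made the mean of a Vdac gene pass in limma. Vdac1 turned to -0.0257 read as channel 2 over channel 1 and to -0.278 on the arrays with 59Q in Cy3 only, and from its second clone it was -0.00671, or -0.760 read as Cy5 over Cy3. Vdac2 turned to 0.354 on the arrays with 59Q in Cy3 only. Vdac3 turned to -0.0485 read as Cy5 over Cy3, -0.180 read as channel 2 over channel 1 and -0.0122 on the arrays with 59Q in Cy5 only. On the arrays with 59Q in Cy3 only the differences turned to -0.632 for Vdac1 minus Vdac2, -0.399 for Vdac1 minus Vdac3 and 0.233 for Vdac2 minus Vdac3. Read as Cy5 over Cy3, Vdac1 minus Vdac2 (0.954) and Vdac1 minus Vdac3 (0.514) passed the sign-flip test, at the smallest p that 6 arrays allow. They also passed from the first Vdac1 clone (2.18 and 1.74), an alternative chosen after seeing the data. In this reading 8.44% of the clones on all 6 arrays lay above 0 on every array and 8.81% below 0. Other pairs of genes were not tested. From the second Vdac1 clone the differences turned to -0.272 and -0.712, and Vdac1 minus Vdac3 to -0.0389 as deposited. Clones called rose from 0 to 279 (272 higher, 7 lower) read as Cy5 over Cy3. Leaving out 1 replicate gave 0.153 to 0.405 for Vdac1, -0.414 to 0.00831 for Vdac2, -0.0884 to 0.114 for Vdac3 (below 0 without replicate 1 at -0.0884 or replicate 5 at -0.00477), 0.192 to 0.793 for Vdac1 minus Vdac2, 0.139 to 0.383 for Vdac1 minus Vdac3, -0.425 to -0.0521 for Vdac2 minus Vdac3, and 0 clones called. Over the 12 possible flip-dye pairings Vdac1 ran from 0.290 to 0.410, Vdac2 from -0.494 to -0.161 and Vdac3 from -0.0478 to 0.0900, so its sign turned (smallest limma adjusted p = 0.741, 0.787 and 0.961), and 0 to 1 clones were called. Read as Cy5 over Cy3, an alternative added after seeing the data, the pairings gave 0.429 to 0.549, -0.671 to -0.338 and -0.108 to 0.0294 (median -0.0395 for Vdac3), and 0 to 202 clones called. The cause of these changes was not tested. Each array sets 59Q directly against N3, so tests of the Z-ratios already compare them within an array. Arrays could not be paired further because the flip-dye pairs are not identified. The 12 pairings above average arrays over every way they could pair.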

Other observations

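Of 10 neuroblast markers 4 were tested, with 2 above 0 as deposited (median 0.160) and 1 read as Cy5 over Cy3 (median -0.0300). Of 10 markers of other cells 6 were tested, with 1 and 0 above 0 (medians -0.0950 and -0.235). In limma 0 passed in either reading. At an unadjusted p under 0.05 there were 0 neuroblast markers as deposited and 2 read as Cy5 over Cy3, and 1 and 0 markers of other cells, where all genes gave 2.61% and 19.8%.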
